A study of Mus musculus with 15 samples.

Results

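Transcripts of mouse embryonic fibroblasts (MEFs) labelled Mta1-KO/Mta1, in which Mta1 was put back into Mta1 knockout cells, were compared with those of the Mta1-KO MEFs they came from. The comparison holds the 3 Mta1-KO/Mta1 arrays and the 3 Mta1-KO arrays, 6 of the 15 arrays of the study, chosen by their sample titles, with all 16755 probe rows. Affymetrix Mouse Exon 1.0 ST arrays, which carry probes along the exons of each gene, gave a gene-level value of RNA. All MEFs were of strain C57BL/6J. Mta1-KO and Mta1-KO/Mta1 MEFs carried the Mta1-/- genotype and came from embryos of day 9.0, as did the WT MEFs. The P53-KO MEFs (P53-/-) and the P53-KO/Mta1 MEFs, in which Mta1 was over expressed on that genotype, came from day 12.5, so P53 genotype and embryonic day cannot be told apart. Neither the vector and promoter of the introduced Mta1, nor the number of clones or embryos, is given in the sources used here. No arm with an empty vector was analysed here, so the introduced gene and the act of introducing it cannot be told apart.

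MTA1, metastasis associated protein 1, belongs to NuRD, the complex for nucleosome remodeling and deacetylation. NuRD joins the ATP-driven remodelers CHD3 and CHD4 with the histone deacetylases HDAC1 and HDAC2, with MBD proteins that lead it to DNA and with the histone-binding proteins RBBP4 and RBBP7, and it is best known for silencing transcription, although MTA1 also acts as a coactivator at some genes. Embryonic fibroblasts secrete collagens, proteoglycans and proteases of the connective tissue matrix, and they respond to interferon, which induces antiviral proteins, guanylate-binding GTPases and the parts of antigen presentation.

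Values are the deposited log2 values, each row relative to its own median over the 15 arrays, so 0 is the row centre and no absolute level is held. A row was called where limma's Benjamini-Hochberg adjusted p was under 0.05 and the fold was at least 2. Replicate SDs were small, with a median of 0.080 (Mta1-KO) or 0.068 (Mta1-KO/Mta1), and the median standard error of a change was 0.079. The study's methods describe the 3 arrays of each group as biological replicates, while the labels use that word for Mta1-KO and not for Mta1-KO/Mta1. Neither source says whether the transfected replicates were separate transfections, so the p-values cover only how far these arrays scatter, which may in part be technical. The SD of all values on an array was 0.389 to 0.413 for Mta1-KO, against 0.333 to 0.356 for Mta1-KO/Mta1. This narrower distribution moved with the comparison, and its part in the results was not tested beyond a quantile normalization, whose value is given for named genes that lose their call under it.

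The Mta1 row did not rise. Its values were -1.06, -1.08 and -1.10 in Mta1-KO against -1.13, -1.35 and -1.28 in Mta1-KO/Mta1, so every Mta1-KO/Mta1 array lay below every Mta1-KO array. The change was -0.17 (SE 0.066, adjusted p = 0.0669 from limma). After quantile normalization it was -0.28 (adjusted p = 0.00484 from limma). This row therefore does not bear out the label of re-expression, and a direction drawn below from the arrays labelled Mta1-KO/Mta1 rests on that label. On this row WT read 0.08, -0.06 and 0.00. The changes against WT were -1.09 in Mta1-KO and -1.26 in Mta1-KO/Mta1, both called. Whether the row's probes lie inside the deleted or the introduced sequence is not known here. The study also compared Mta1 protein in the 5 groups on a Western blot, which was not analysed here. Of the 15 NuRD and Mta family genes with a row, none was called, beside 1.08% of all genes at 1 row each. At an adjusted p under 0.05 alone, 5 rose and 1 fell (7 and 3 after quantile normalization). Over all genes at 1 row each, 12.7% were higher and 16.0% lower. Mbd2, which binds methylated DNA, rose by 0.56 (adjusted p = 5.92e-05 from limma), and Gatad2b, Hdac2, Chd4 and Rbbp4 rose by 0.31, 0.33, 0.24 and 0.12. Zmynd8, a reader of histone marks that recruits NuRD, fell by 0.42.

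In all, 186 of 16755 rows were called (1.11%), 54 higher (0.322%) and 132 lower (0.788%) in Mta1-KO/Mta1. After quantile normalization of the arrays 120 rows were higher and 119 lower, so the share of higher rows among the calls was 50.2% in place of 29.0%. Of the 186 calls, 128 were also called in the same direction under that setting (52 higher, 76 lower), and no row changed sign. Taken at 1 row a gene, 1.08% of genes were called. Each of the 186 rows had its arrays of one group all above those of the other, which held for 41.1% of all rows. Among the called rows, 35 changed at least 3-fold, 10 higher and 25 lower, and 11 at least 4-fold, 3 higher and 8 lower. At an adjusted p under 0.05 alone 4698 rows passed (28.0%), 2070 higher (12.4%) and 2628 lower (15.7%). Their median absolute change was 0.39, and 78.5% of them were under 1.5-fold, while the median change over all rows was -0.03. Of the called rows 162 read a single gene, 19 read several genes and 5 had no symbol.

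**Figure D1:**
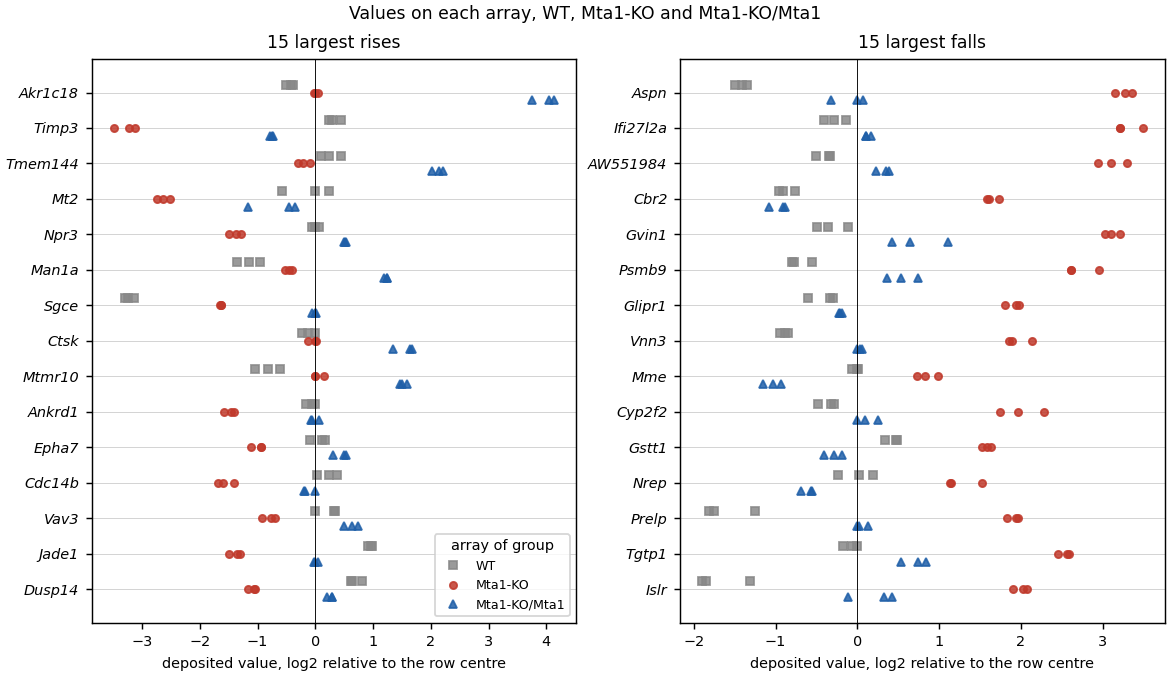
Deposited log2 value (horizontal axis, relative to the row centre) on each array of WT (grey squares), Mta1-KO (red circles) and Mta1-KO/Mta1 (blue triangles) for called single-gene rows (vertical axis), the 15 that rose most and the 15 that fell most. Only rows with the 3 blue points all on one side of the 3 red points could enter, which held for all 186 called rows and 41.1% of all rows. The changes run from Akr1c18 with a rise of 3.98 to Aspn with a fall of 3.35.

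The small leucine-rich proteoglycans, secreted proteins that bind collagen fibrils and growth factors, held the largest fall. Aspn (asporin, chr13:49544443-49567565) read 3.15, 3.36 and 3.28 in Mta1-KO against 0.00, -0.32 and 0.07 in Mta1-KO/Mta1. Its change was -3.35 (10.2-fold lower, SE 0.100, adjusted p = 1.06e-10 from limma). The arrays stayed above the WT values of -1.41, -1.35 and -1.50. Prelp, which anchors basement membranes to connective tissue, read 1.94, 1.97 and 1.83 and then 0.02, 0.00 and 0.13, a change of -1.87 (3.64-fold lower, SE 0.135, adjusted p = 3.16e-07). Islr, a mesenchymal leucine-rich repeat protein also called meflin, changed by -1.79 (3.47-fold lower, SE 0.172, adjusted p = 4.04e-06). For all 3 genes the groups were apart by several times the spread between arrays. Of the 17 listed members with a row these 3 were called lower and none higher, against 0.767% lower among all 14860 genes taken at 1 row each. At adjusted p alone 9 fell and none rose, against 16.0% lower and 12.7% higher over all genes. The further falls were those of Ogn (-0.59), Lum (-0.44), Bgn (-0.38), Dcn (-0.35), Podnl1 (-0.33) and Ecm2 (-0.20). The list's median was -0.33, beside -0.03 over all genes, and -0.31 after quantile normalization.

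Collagens fell by less. Col3a1, the chain of type III collagen, read 0.00 on each Mta1-KO array to 2 decimals and -1.49, -1.48 and -1.44 in Mta1-KO/Mta1, which was also below the WT mean of -0.94 (SD 0.084, n = 3). Its change was -1.47 (2.77-fold lower, SE 0.077, adjusted p = 1.50e-08 from limma). It was the only one of 39 collagen chains called, beside 0.767% lower and 0.310% higher over all genes. The list median was -0.17 as deposited and after quantile normalization. At adjusted p alone 14 collagen chains fell and none rose, beside 16.0% lower and 12.7% higher over all genes. The falls included the 3 type VI chains Col6a1 (-0.97), Col6a3 (-0.71) and Col6a2 (-0.69), the basement membrane chains Col18a1 (-0.86), Col15a1 (-0.64), Col4a5 (-0.59), Col4a1 (-0.55) and Col4a2 (-0.50), and Col1a2 (-0.53). Col1a1, which pairs with Col1a2 in type I collagen, was at -0.20 (adjusted p = 0.438).

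Other matrix glycoproteins and elastic fibre genes gave 10 lower calls and no higher call among 90. Over all genes 0.767% were called lower and 0.310% higher. Spon2, a secreted F-spondin relative, read 1.12, 1.22 and 1.23 and then -0.56, -0.51 and -0.48, a change of -1.70 (3.26-fold lower, SE 0.082, adjusted p = 7.03e-09 from limma). Mgp, the matrix Gla protein that inhibits calcification, read 0.04, -0.05 and 0.00 and then -1.48, -1.42 and -1.30, a change of -1.40 (SE 0.093, adjusted p = 1.41e-07). Neither gene's groups overlapped. Matn2, a filament-forming matrilin, fell by 1.59, Has2, which makes hyaluronan, by 1.19, and Postn, the periostin that binds integrins, by 1.14. Ccn5, Sned1, the lysyl oxidase Loxl3, the elastic fibre protein Fbln5 and the elastic fibre protein Emilin1 fell by 1.14, 1.10, 1.03, 1.02 and 1.01. Leaving out an array took Fbln5 (-0.99, without Mta1-KO replicate 3), Loxl3 (-0.98, without Mta1-KO/Mta1 replicate 1) and Emilin1 (-0.95 and -0.97, without Mta1-KO/Mta1 replicates 1 and 3) just under a fold of 2. Postn (-0.70), Ccn5 (-0.95), Sned1 (-0.94) and Loxl3 (-0.83) were under it after quantile normalization. At adjusted p alone 32 of the 90 fell and 4 rose, beside 16.0% lower and 12.7% higher over all genes. The list median was -0.12.

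Some markers of the fibroblast itself fell with these matrix genes, and 1 of 19, Col3a1, was called, beside 0.767% called lower over all genes. Of 19 fibroblast and mesenchyme markers, 12 passed adjusted p alone and all 12 fell, beside 16.0% lower and 12.7% higher over all genes. The list median was -0.33 (-0.34 after quantile normalization). Col3a1, Col1a2, Lum and Dcn, among these 12, are also on the collagen or proteoglycan lists above. The others included the platelet-derived growth factor receptors Pdgfrb (-0.66) and Pdgfra (-0.49), S100a4 (-0.62) and the surface protein Thy1 (-0.48). Vim (-0.08), Prrx1 (-0.06), Ddr2 (-0.05), Twist1 (0.03) and Fap (0.00) did not pass, nor did Col1a1, given above. No gene was called among the markers of endothelium, blood and macrophage, epithelium, neural cells, muscle, fat, cartilage and bone, and pluripotent or extra-embryonic cells. Over all genes 1.08% were called. The medians of these lists lay between -0.08 and -0.01. Values relative to a row centre cannot show whether a marker is expressed. In bulk RNA, fewer cells of a type and less RNA per cell cannot be told apart.

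Interferon-induced genes were among the large falls. Ifi27l2a, a small interferon-induced membrane protein (chr12:103433873-103443680), read 3.22, 3.22 and 3.49 in Mta1-KO against 0.17, 0.11 and 0.10 in Mta1-KO/Mta1. Its change was -3.18 (9.07-fold lower, SE 0.083, adjusted p = 3.46e-11 from limma), beside WT values of -0.41, -0.29 and -0.14. Oas2, an oligoadenylate synthetase that activates RNase L on viral RNA, read 2.74, 2.97 and 2.84 and then 1.32, 1.34 and 1.34, a change of -1.52 (SE 0.078, adjusted p = 1.23e-08). They were the only 2 of 51 antiviral effectors called, both lower, beside 0.767% lower and 0.310% higher over all genes. At adjusted p alone 33 of the 51 fell, among them Ifit1 (-0.86), Mx2 (-0.73), Mx1 (-0.61), Bst2 (-0.61) and Ifitm3 (-0.67), and 2 rose, Ifi30 (0.64) and Ms4a4d (0.64). Rsad2, Cmpk2 and Isg20 were at 0.10, 0.08 and -0.10 and did not pass. Over all genes 16.0% were lower and 12.7% higher at adjusted p alone. The list median was -0.42. After quantile normalization it was -0.06, with 14 members lower and 8 higher at adjusted p alone, so the count over the list, unlike Ifi27l2a itself (-2.41 under that setting), depended on the scaling of the arrays. Against WT, 37 of the 51 effectors were called higher in Mta1-KO (median 2.14, beside 4.23% of all rows) and 34 in Mta1-KO/Mta1 (median 1.64, beside 3.37% of all rows). Those 2 counts share the WT arrays. With the comparison described here the first shares the Mta1-KO arrays and the second the Mta1-KO/Mta1 arrays.

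The GTPases that interferon induces against intracellular pathogens showed 2 called falls among 8, beside 0.767% called lower over all genes. Gvin1, a very large inducible GTPase, read 3.10, 3.21 and 3.03 and then 0.65, 0.42 and 1.11, a change of -2.39 (5.23-fold lower, SE 0.149, adjusted p = 8.08e-08 from limma). Tgtp1, an immunity-related GTPase, was called on both of its rows, with 2.59, 2.57 and 2.45 followed by 0.74, 0.54 and 0.84 on the first (-1.83, adjusted p = 1.39e-09) and a change of -1.41 on the second (-0.80 after quantile normalization, the call then lost). Tgtp1 has a near-identical neighbour, and the reading may be shared. Gbp2 (-0.97), Gbp3 (-0.74), Gbp5 (-0.60), Gbp7 (-0.57) and Irgm1 (-0.29) fell at adjusted p alone, giving 7 of 8 lower and a median of -0.67 (4 lower, 1 higher and a median of -0.31 after quantile normalization). Over all genes 16.0% were lower and 12.7% higher at adjusted p alone. Among the rows that read several genes, that of Igtp and Irgm2 changed by -1.11, that of Iigp1 with its neighbours by -1.64, those of Oas1a with Oas1g, Ifit3 with Ifit3b and Trim30d with Ccnyl1 by -1.06, -1.14 and -1.91, and those of Apol9a with Apol9b by -1.24 and -1.14, and none of these can be given to a single gene.

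Sensors and signal carriers upstream of these effectors were called in both directions. Zbp1, a sensor of Z-form nucleic acid that starts cell death, read 2.44, 2.52 and 2.49 and then 0.53, 0.89 and 1.05, a change of -1.66 (3.15-fold lower, SE 0.099, adjusted p = 5.23e-08 from limma). Dhx58, the RNA helicase LGP2, changed by -1.20 (adjusted p = 2.82e-08), and Irf7, the transcription factor that amplifies type I interferon, by -1.04 (adjusted p = 3.00e-06). Tlr7, the endosomal receptor for single-stranded RNA, went the other way, from 0.27, 0.43 and 0.14 to 1.41, 1.23 and 2.03, a rise of 1.27 (SE 0.146, adjusted p = 2.08e-05). These 4 were the calls among 33 members, beside 0.767% lower and 0.310% higher over all genes. Stat2 (-0.84) and Irf9 (-0.70), the partners that bind interferon response elements, and Irf5 (-0.64) fell at adjusted p alone, as did the receptor chain Ifnar1 (-0.24), while its partner Ifnar2 rose by 0.23. The list median was -0.09, and 0.00 after quantile normalization, where Zbp1 (-0.97), Dhx58 (-0.59), Irf7 (-0.45) and Oas2 (-0.79) were under a fold of 2. Irf7 was also under it (-0.98) without Mta1-KO/Mta1 replicate 1.

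Antigen presentation fell at a pair of adjacent genes. Psmb9, a catalytic subunit of the immunoproteasome, read 2.62, 2.61 and 2.96 in Mta1-KO against 0.36, 0.74 and 0.53 in Mta1-KO/Mta1, a change of -2.19 (4.56-fold lower, SE 0.112, adjusted p = 1.23e-08 from limma). Tap1, a chain of the transporter that carries peptides into the endoplasmic reticulum, read 2.64, 2.51 and 2.68 and then 0.97, 1.14 and 1.07, a change of -1.55 (2.93-fold lower, SE 0.092, adjusted p = 4.74e-08). Under quantile normalization Psmb9 changed by -1.43 and Tap1 by -0.83. Of 20 listed genes these 2 were called, beside 0.767% called lower over all genes. The list median was -0.24 (-0.11 after quantile normalization). At adjusted p alone 11 of the 20 fell and 1 rose, beside 16.0% lower and 12.7% higher over all genes. The falls included Psmb8 (-0.96), Tap2 (-0.92), Tapbp (-0.81) and Cd74 (-0.80), and B2m, the light chain of class I (-0.23). Rows shared by several H2 class I genes changed by -1.52 and -1.38.

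The start sites of these 2 genes face away from each other across one short stretch, which is shown because both genes fell. Psmb9 (chr17:34182030-34187330, minus strand) and Tap1 (chr17:34187556-34197225, plus strand) have 225 bases between their first bases, in capitals below (RefSeq, GRCm38.p6, chr17:34187306-34187605, plus strand).
Psmb9-Tap1: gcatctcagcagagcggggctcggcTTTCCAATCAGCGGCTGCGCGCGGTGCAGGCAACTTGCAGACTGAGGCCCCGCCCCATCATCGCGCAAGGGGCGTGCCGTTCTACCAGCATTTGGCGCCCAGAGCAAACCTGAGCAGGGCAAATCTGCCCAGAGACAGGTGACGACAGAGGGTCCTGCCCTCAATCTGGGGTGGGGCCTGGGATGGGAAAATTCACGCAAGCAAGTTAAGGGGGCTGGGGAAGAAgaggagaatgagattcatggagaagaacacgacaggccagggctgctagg
The Tgtp1 promoter window, which runs from 250 bases before the gene's start to 50 after it, held a pair of GAAA units with 2 bases between them, the core of the interferon-stimulated response element, in capitals (chr11:48992197-48992496, minus strand).
Tgtp1: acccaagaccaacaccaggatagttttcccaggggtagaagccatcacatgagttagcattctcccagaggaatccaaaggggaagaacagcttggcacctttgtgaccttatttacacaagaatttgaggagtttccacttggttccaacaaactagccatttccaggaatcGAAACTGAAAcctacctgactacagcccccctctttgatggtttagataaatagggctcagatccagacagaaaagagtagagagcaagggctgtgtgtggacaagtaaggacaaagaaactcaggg
Searched on both strands, this motif was present in 3.44% of the 32851 promoter windows of the RefSeq table. By gene, it was present in 7 of the 76 called lower and 2 of the 42 called higher genes that have a window. A match in any window counted for a gene, so these counts and the share of windows are unlike measures. Of the 7 only Tgtp1 is on the interferon lists. No window was available for Ifi27l2a, Zbp1, Oas2, Gvin1 or Dhx58, so these genes could not be searched. A match is a sequence feature and not a measured binding site.

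**Figure D2:**
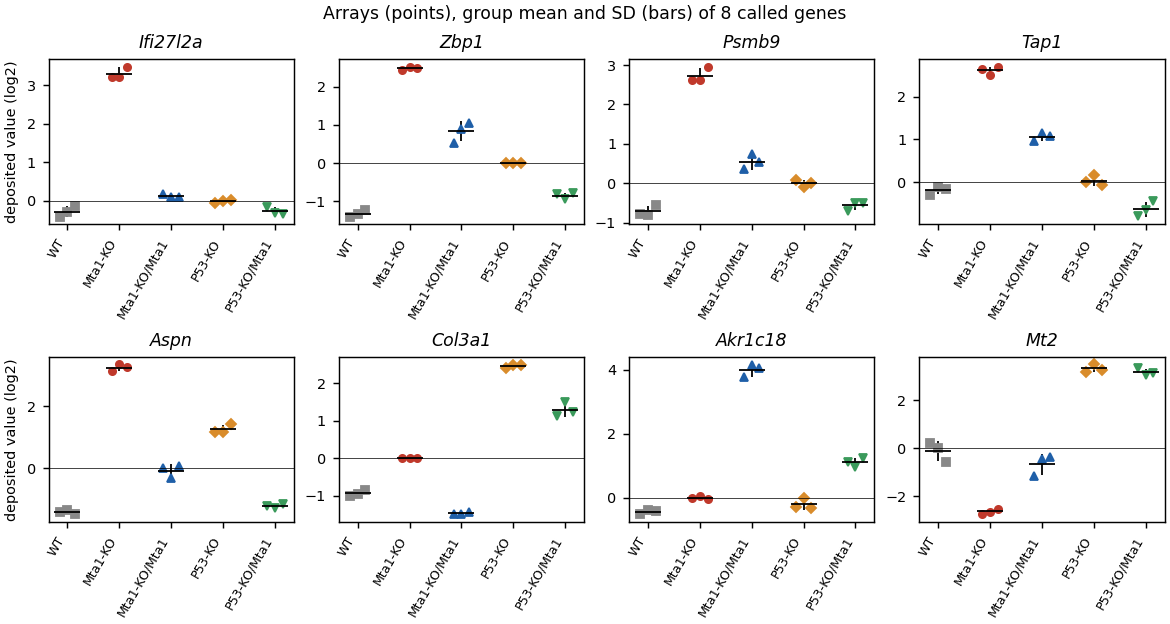
Deposited log2 values (vertical axis, relative to the row centre) on the 3 arrays of each of the 5 groups (horizontal axis) for 8 called genes, with the group mean and SD (n = 3) as black bars. Ifi27l2a fell from 3.22 to 3.49 in Mta1-KO to between 0.10 and 0.17 in Mta1-KO/Mta1, while Mt2 rose between these groups and read 3.06 to 3.51 on all P53-KO and P53-KO/Mta1 arrays.

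Chemokines, cytokines and acute phase genes were called in the lower direction alone. Among 85 chemokine and cytokine genes 5 were lower and none higher, beside 0.767% lower and 0.310% higher over all genes. At adjusted p alone 25 fell and 5 rose, beside 16.0% and 12.7%. Tnfsf10, the death ligand TRAIL, read 1.79, 1.86 and 1.66 and then 0.24, 0.07 and 0.06, a change of -1.65 (3.13-fold lower, SE 0.070, adjusted p = 2.16e-09 from limma), beside WT values of -0.04, 0.00 and -0.09. Cxcl5, a neutrophil chemokine, changed by -1.50 (SE 0.067, adjusted p = 3.15e-09), from about 0 in Mta1-KO, and lay below WT in both groups. The inflammatory cytokine Il6 changed by -1.27 (adjusted p = 2.15e-05) and, with -1.22, -1.16 and -1.06 in Mta1-KO/Mta1, lay below WT on all 3 arrays. The receptor antagonist Il1rn and the membrane-bound chemokine Cx3cl1 fell by 1.21 and 1.15, and neither kept its call after quantile normalization (Il1rn at -0.85 and Cx3cl1 just under a fold of 2). Of 36 acute phase and complement genes, Clu (clusterin, -1.65), Lbp (which carries bacterial lipopolysaccharide, -1.36) and C1rl (-1.17, and -0.96 with its call lost after quantile normalization) were called, all lower. The medians of both lists, -0.05 and -0.06, were close to that of all genes.

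Proteases and their inhibitors were called in both directions, 2 higher and 4 lower of 79, beside 0.310% higher and 0.767% lower over all genes. Timp3, a matrix-bound inhibitor of metalloproteases, read -3.22, -3.13 and -3.49 in Mta1-KO against -0.75, -0.73 and -0.79 in Mta1-KO/Mta1, a rise of 2.52 (5.75-fold higher, SE 0.079, adjusted p = 1.44e-10 from limma). The WT arrays lay above both, at 0.44, 0.29 and 0.23. Ctsk, the collagen-degrading cathepsin K, read 0.02, -0.13 and 0.00 and then 1.35, 1.68 and 1.64, a rise of 1.59 (3.01-fold, SE 0.090, adjusted p = 3.06e-08), to above WT. Mme, the membrane peptidase neprilysin, went from 0.73, 0.99 and 0.83 to -0.94, -1.15 and -1.03, a change of -1.89 (3.71-fold lower, adjusted p = 2.94e-09), to below WT. The gelatinase Mmp9 and Mmp19 changed by -1.39 and -1.25, and Adam23, which has no active protease site, by -1.44 and -1.24 on its 2 rows. After quantile normalization Mmp19 (-0.84) and the first Adam23 row (-0.75) lost their calls. Of 40 cadherin and protocadherin genes 3 were called lower and none higher, beside 0.767% lower and 0.310% higher over all genes. These were the neighbouring Pcdhb4, Pcdhb8 and Pcdhb9, which changed by -1.07, -1.44 and -1.12. These clustered genes are close in sequence, their rows may share signal, and none of the 3 kept a fold of 2 under quantile normalization (-0.55, -0.84 and -0.51). Pcdhb4 also fell just under it without Mta1-KO/Mta1 replicate 3, and Pcdhb9 (-0.99) without Mta1-KO replicate 2.

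Enzymes of carbonyl, steroid and foreign compound metabolism held the largest rise and the longest list of falls. Akr1c18 (chr13:4132615-4150646), a hydroxysteroid dehydrogenase that inactivates progesterone, read -0.01, 0.05 and -0.03 in Mta1-KO against 3.76, 4.14 and 4.04 in Mta1-KO/Mta1. The rise was 3.98 (15.8-fold, SE 0.103, adjusted p = 3.46e-11 from limma), while WT read -0.51, -0.38 and -0.42, so the re-expression arrays stood apart from both other day 9.0 groups. Aldh1a7, an aldehyde dehydrogenase, rose by 1.25. Lower were 11 of the 95 genes, beside 0.767% lower and 0.310% higher over all genes. Cbr2, a carbonyl reductase, read 1.59, 1.61 and 1.73 and then -1.08, -0.89 and -0.91, a change of -2.60 (6.06-fold lower, SE 0.084, adjusted p = 1.84e-10), to WT values of -0.96, -0.76 and -0.91. Gstt1, a glutathione transferase, read 1.59, 1.53 and 1.64 and then -0.41, -0.19 and -0.29, a change of -1.88 (3.69-fold lower, SE 0.069, adjusted p = 6.08e-10), to below WT. The cytochrome P450 Cyp2f2 changed by -1.88.

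Several of these falls were of neighbours in the genome. The pantetheinases Vnn3 and Vnn1, which release pantothenate and cysteamine and lie 24845 bases apart on chromosome 10, changed by -1.93 and -1.31. The carboxylesterases Ces1g, Ces1f and Ces1d on chromosome 8 changed by -1.50, -1.42 and -1.07. Ces1f and Ces1g have no protein-coding gene between them, and Ces1d and Ces1f have 1. These are gene families of similar sequence, so part of the signal may be shared between their rows. The remaining calls were those of Aox1 (-1.14), Aldh6a1 (-1.08) and Aldh3b1 (-1.04). Ces1g (-0.90), Ces1d (-0.86), Aox1 (-0.95) and Aldh3b1 (-0.63) lost their calls after quantile normalization. At adjusted p alone 40 of the 95 fell and 7 rose, beside 16.0% lower and 12.7% higher over all genes. The list median was -0.16 (-0.09 after quantile normalization, with 7 calls lower).

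Of 21 metallothionein and NRF2 target genes, 1 was called higher and 1 lower, beside 0.310% higher and 0.767% lower over all genes. Mt2, a metallothionein that binds zinc and copper, read -2.75, -2.64 and -2.51 in Mta1-KO against -1.17, -0.46 and -0.35 in Mta1-KO/Mta1, a rise of 1.97 (3.93-fold, SE 0.208, adjusted p = 9.62e-06 from limma). One of the 3 Mta1-KO/Mta1 arrays lay apart from the other 2, and all 3 lay above the Mta1-KO arrays. Mt1, another metallothionein, rose by 0.43 (adjusted p = 0.0013). The Mt2 promoter window (RefSeq, GRCm38.p6, chr8:94172368-94172667, plus strand) is shown because its known zinc response runs through short metal response elements. Matches to TGCGCNC or TGCACNC on either strand, 4 in number, are in capitals.
Mt2: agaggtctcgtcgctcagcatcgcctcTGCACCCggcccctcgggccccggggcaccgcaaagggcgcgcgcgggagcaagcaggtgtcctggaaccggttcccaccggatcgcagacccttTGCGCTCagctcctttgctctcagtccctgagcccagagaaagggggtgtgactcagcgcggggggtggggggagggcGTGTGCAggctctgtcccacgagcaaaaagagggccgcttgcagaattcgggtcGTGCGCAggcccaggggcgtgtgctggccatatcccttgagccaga
At least 1 such match was present in 25.7% of all windows, so its presence alone is common. Nqo1, a quinone reductase and target of NRF2, moved the other way, from 1.72, 1.65 and 1.71 to -0.01, 0.27 and 0.23, a change of -1.53 (SE 0.127, adjusted p = 1.11e-06). Among other NRF2 targets, Gclc rose by 0.27, and Hmox1 and Txn1 were at -0.18 and 0.02 and did not pass. Of 46 lipid genes, Apod (apolipoprotein D, -1.51), Lpl (lipoprotein lipase, -1.21), Pla2g7 (-1.17) and Lipa (lysosomal acid lipase, at a fold of 2) were lower and Smpdl3b (1.24) was higher. None of these 5 kept a fold of 2 after quantile normalization (Apod -0.98, Lpl -0.73, Pla2g7 -0.54, Lipa -0.63 and Smpdl3b 0.93). Lipa was also under it without Mta1-KO replicate 2 (-0.97) or without Mta1-KO/Mta1 replicate 1.

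Cholesterol synthesis and cell cycle genes shifted upward by small amounts with no member called, as did the NuRD and Mta family (median 0.12). Over all genes 1.08% were called. Of 20 cholesterol synthesis genes, 9 rose and 1 fell at adjusted p alone, beside 12.7% higher and 16.0% lower over all genes, with a median of 0.20 (0.28 after quantile normalization). The largest rises were those of Cyp51 (0.76, adjusted p = 5.14e-05), Insig1 (0.75), Msmo1 (0.64), Sc5d (0.62), Hsd17b7 (0.50) and Sqle (0.49). Srebf2, the transcription factor of the pathway, was at -0.23 (adjusted p = 0.102). Of 96 cell cycle genes, 31 rose and 5 fell, with a median of 0.12 (0.19 after quantile normalization, with Cenpe then past a fold of 2 among 2 calls). The rises included the kinetochore motor Cenpe (0.90), E2f8 (0.85), the proliferation marker Mki67 (0.71), Ccne1 (0.70) and Mybl2 (0.66), and the falls the inhibitor Cdkn2c (-0.62) and Mcm5 (-0.31). Of 36 P53 target genes none was called, and 10 rose and 7 fell at adjusted p alone, with a median of 0.03. After quantile normalization 1 was called higher, 16 rose and 7 fell at adjusted p alone, and the median was 0.12.

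**Figure D3:**
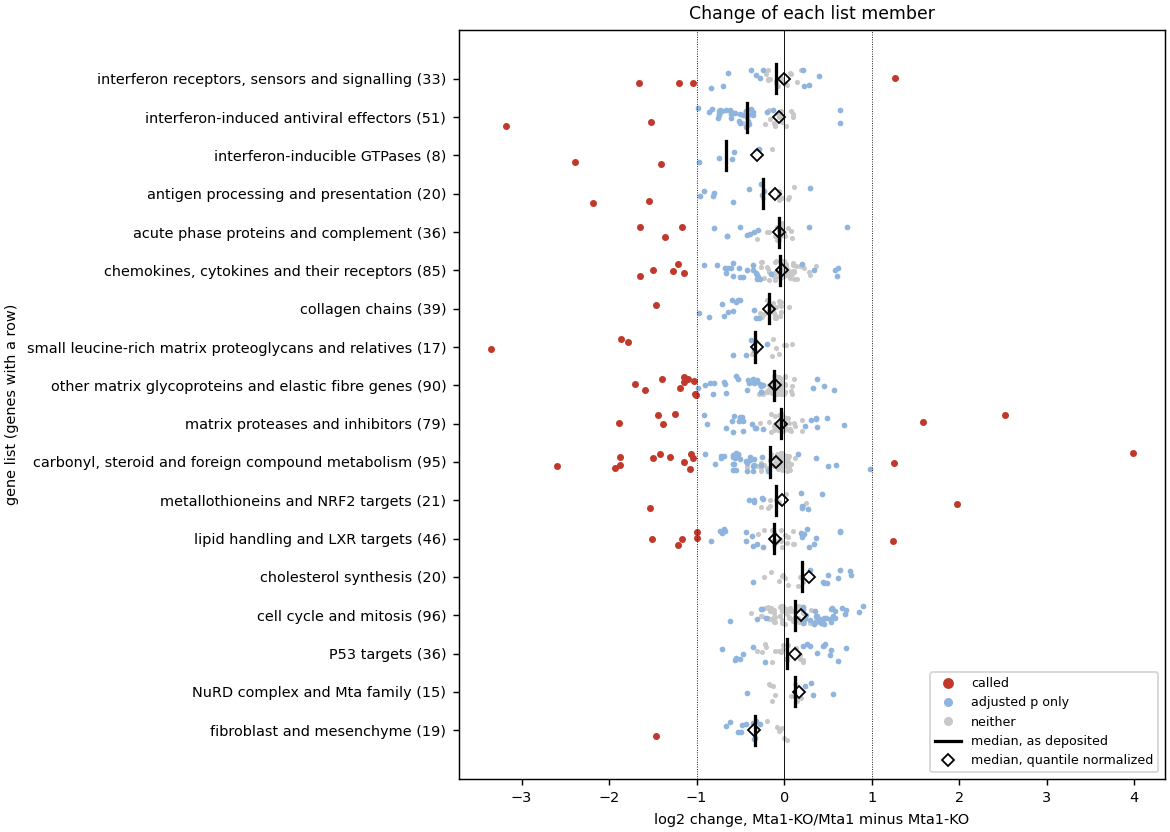
Log2 change on introduction of Mta1 into Mta1-KO MEFs (horizontal axis) of each member of 18 gene lists (vertical axis, number of genes with a row in brackets), in red where called, in blue where only the adjusted p passed and in grey otherwise, with the list median as a black bar and the median after quantile normalization as an open diamond. The antiviral effector median moves from -0.42 to -0.06 with the scaling, while that of the small leucine-rich proteoglycans moves from -0.33 to -0.31.

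Genes of signalling and cell shape were called in both directions. Higher and lower calls were 2 and 1 of 78 growth factor and receptor genes, and 1 and 2 of 48 contractile genes. Of 58 WNT genes 2 were lower, and of 34 immediate early genes 1 was lower. Of 52 TGF-beta and BMP genes 1 was higher, and of 29 imprinted genes 1 was higher. Over all genes 0.310% were called higher and 0.767% lower. Npr3, the clearance receptor of natriuretic peptides, read -1.37, -1.49 and -1.29 and then 0.54, 0.49 and 0.51, a rise of 1.90 (3.72-fold, SE 0.063, adjusted p = 2.42e-10 from limma). Hgf, hepatocyte growth factor, rose by 1.23, and Inhba, the activin beta chain, by 1.21. Ankrd1, a target of YAP and of stretch, read -1.46, -1.41 and -1.58 and then -0.06, -0.07 and 0.06, a rise of 1.46 (SE 0.061, adjusted p = 2.11e-09) to the WT values of -0.16, 0.00 and -0.06. The insulin-like growth factor binding protein Igfbp4 fell by 1.10, the WNT modulators Dkk3 and Rspo2 by 1.14 and 1.04, the immediate early gene Egr2 by 1.16, the myosin light chain kinase Mylk by 1.07 and the muscle filament Des by 1.03. After quantile normalization Mylk (-0.89) and Des (-0.82) lost their calls. Leaving out an array took Des (-0.99, without Mta1-KO replicate 3 or Mta1-KO/Mta1 replicate 1) and Rspo2 (-0.99, without Mta1-KO replicate 1) just under a fold of 2. Sgce, the imprinted epsilon-sarcoglycan, read -1.63, -1.63 and -1.65 and then 0.01, 0.00 and -0.06 and so rose by 1.62, further from the WT values of -3.30, -3.24 and -3.14. No Hox gene of 32 was called, beside 1.08% of all genes.

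Several of the largest changes belonged to genes on none of the lists. Tmem144, a membrane protein, read -0.09, -0.21 and -0.30 and then 2.22, 2.15 and 2.02, a rise of 2.33 (5.03-fold, SE 0.099, adjusted p = 2.17e-09 from limma). Gask1b, the next gene on chromosome 3 at 31697 bases, rose by 1.22. Man1a, a Golgi mannosidase that trims N-glycans, rose by 1.68, Mtmr10 by 1.47, the phosphatase Cdc14b by 1.44, the ephrin receptor Epha7 by 1.44, the exchange factor Vav3 by 1.42, Jade1, a scaffold of a histone acetyltransferase complex, by 1.39 and the phosphatase Dusp14 by 1.35. AW551984 (chr9:39587396-39604774) read 3.10, 3.30 and 2.95 and then 0.23, 0.35 and 0.39, a change of -2.79 (6.92-fold lower, SE 0.084, adjusted p = 1.06e-10). Vwa5a, a von Willebrand factor A domain protein 844059 bases from it, changed by -1.17 (-0.81 after quantile normalization, the call then lost). Glipr1 read 1.81, 1.94 and 1.98 and then -0.21, -0.19 and -0.22, a change of -2.12 (4.34-fold lower, SE 0.121, adjusted p = 3.49e-08). Nrep changed by -1.87. A row shared by many H2b histone genes changed by -2.07, with 0.45, 0.63 and 0.00 in Mta1-KO against -1.78, -2.01 and -1.34 in Mta1-KO/Mta1.

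The same introduced gene was also followed in P53-KO MEFs, on arrays that enter none of the group means compared above, although they add to that comparison's variance estimate and to the row centre. P53-KO/Mta1 against P53-KO gave 271 called rows (1.62%), 66 higher (0.394%) and 205 lower (1.22%). Of the 132 rows lower in Mta1-KO/Mta1, 35 were called lower there, 1 higher and 96 neither, and their median change was -0.54 beside -1.20. Of the 54 higher rows, 5 were called higher, 3 lower and 46 neither, with a median of 0.27 beside 1.25. The difference between the responses, tested as its own contrast, was called in 273 rows over the table (1.63%; 164 higher, 0.979%, and 109 lower, 0.651%) and in 70 of the 186, a count that the choice of these rows for a large first change raises.

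Cbr2 fell in both backgrounds, by 2.44 in P53-KO MEFs, with a difference of -0.16 (SE 0.119, adjusted p = 0.463 from limma). Aspn fell by 2.49 there, with a difference of -0.85 that passed the adjusted p (8.44e-04) and not the fold. Ifi27l2a changed far less in P53-KO MEFs (-0.26, adjusted p = 0.0270). Its P53-KO arrays read -0.06, 0.00 and 0.03 and its P53-KO/Mta1 arrays -0.15, -0.32 and -0.34, and the difference between the responses was -2.92 (SE 0.118, adjusted p = 2.19e-09). Psmb9 (difference -1.63), Gvin1 (-2.43), Tgtp1 (-1.95 and -1.14), Oas2 (-1.43) and AW551984 (-2.53) also had a called difference. Their P53-KO means were 0.00, -0.14, -0.14 and -0.01 (the 2 Tgtp1 rows), -0.06 and 0.02, in that order. Their Mta1-KO means were 2.73, 3.11, 2.54 and 3.16, 2.85 and 3.12, so the starting values differed. How far the starting values shaped the differences was not tested.

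Some genes fell further in P53-KO MEFs or moved the opposite way. Lbp and Postn changed by -4.74 and -3.84 there, and the differences of 3.38 and 2.69 were called. Npr3 read 0.60, 0.52 and 0.69 in P53-KO and -1.95, -2.04 and -1.90 in P53-KO/Mta1, a fall of 2.57 where it rose by 1.90 in Mta1-KO MEFs, and this difference of 4.46 (SE 0.089, adjusted p = 1.89e-12) was the largest among the named genes. Akr1c18 rose in both, by 1.31 in P53-KO MEFs, with a difference of 2.67. Timp3 and Mt2 changed by -0.25 and -0.16 in P53-KO MEFs, where they rose by 2.52 and 1.97 in Mta1-KO MEFs. Their P53-KO means of 0.23 and 3.33 were above the Mta1-KO means of -3.28 and -2.63. The Mta1 row rose by 0.27 in P53-KO/Mta1 and not in Mta1-KO/Mta1. The backgrounds also differ in Mta1 genotype, with Mta1 row means of -1.08 in Mta1-KO and 0.42 in P53-KO. Mta1 genotype, the amount of introduced Mta1, P53 genotype and embryonic day therefore cannot be told apart in these differences.

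**Figure D4:**
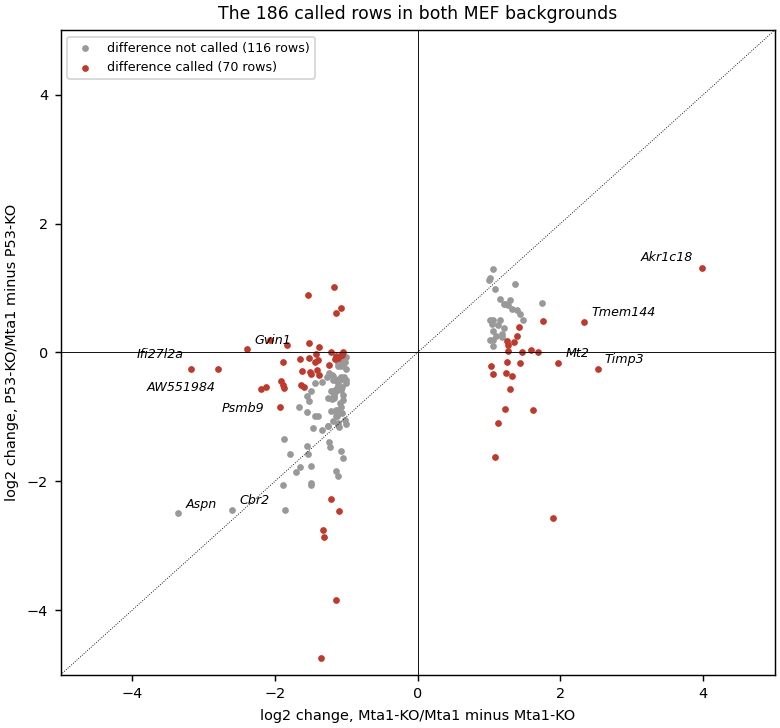
Log2 change in P53-KO MEFs (vertical axis) against log2 change in Mta1-KO MEFs (horizontal axis) of the 186 called rows, in red where the difference between the 2 changes was called (70 rows), with equality as a dotted line. The gap without points around 0 on the horizontal axis comes from the minimum fold of 2. Aspn and Cbr2 lie near the dotted line, while Ifi27l2a, AW551984 and Timp3 lie near 0 on the vertical axis.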

How the data were processed

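Total RNA of 15 MEF samples was hybridized to exon arrays, 1 per sample. The authors used GeneSpring GX and deposited log2 values in which every row has a median of 0 across the 15 arrays. The summarization and normalization of exon probes are not given in sources used here, and signal level and background are unknown. Names came from the platform annotation: 14996 rows had 1 gene symbol, 1019 several and 740 none, and for genes with several rows the most variable row stood in lists. Gene lists and named genes were chosen with earlier results of these data known.

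From the deposited values limma 3.58.1 (R 4.3.3) estimated 5 group means (10 residual and 3.46 prior degrees of freedom), and contrasts were adjusted by Benjamini-Hochberg over all 16755 rows. A call needed an adjusted p under 0.05 together with a fold of 2 or more. The script was tested on simulated data. Named genes were the NuRD and Mta family, genes the study names from this comparison, the 15 largest rises and falls, and called members of 39 gene lists, with the largest change of a list without calls. Gask1b, the several-gene rows and list members below a fold of 2 were added after their values were seen. Promoter sequences are those of RefSeq on GRCm38.p6. The alternatives were quantile normalization, centring of each array, robust eBayes, treat, the methods' t-test, the 6 arrays alone, a minimum fold of 1.5, single-symbol rows, a replicate block and each array left out. Dim probes could not be filtered, because centred values hold no level. Python 3.11.15 and matplotlib 3.10.9 drew the figures.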

Additional observations from a re-analysis of the deposited data

Results flagged for a closer look

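The response to introduced Mta1 differed between Mta1-KO and P53-KO MEFs for 45 rows of named genes. The test was limma's contrast of the 2 responses, at an adjusted p under 0.05 with a fold of 2 or more. Many named genes were chosen for a large change in Mta1-KO MEFs, which is the first term of this contrast. That choice raises the count of 45. Among all 16755 rows the difference was called in 1.63% (273 rows). The differences below are log2 changes in Mta1-KO MEFs minus those in P53-KO MEFs. Embryonic day, P53 genotype, Mta1 genotype and the amount of introduced Mta1 cannot be told apart in them. Starting values in the 2 backgrounds also differed, as given above for some genes.

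On the negative side were Ifi27l2a at -2.92, Gvin1 at -2.43, Tgtp1 at -1.95 and -1.14, Psmb9 at -1.63, Tnfsf10 at -1.55 and Oas2 at -1.43. So were the enzyme genes Nqo1 (-2.42), Gstt1 (-1.74), Ces1f (-1.40), Cyp2f2 (-1.37), Ces1g (-1.16), Vnn3 (-1.09) and Ces1d (-1.04), and the lipid genes Pla2g7 (-2.17), Lpl (-1.21) and Apod (-1.20). The others on that side were AW551984 (-2.53), Glipr1 (-1.58), Nrep (-1.32), Pcdhb8 (-1.29), Mmp9 (-1.27), Matn2 (-1.06) and Egr2 (-1.06).

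On the positive side, Npr3 (4.46), Lbp (3.38), Timp3 (2.77), Postn (2.69), Akr1c18 (2.67), Sgce (2.51), Mt2 (2.13) and Hgf (2.12) differed most. Tmem144 (1.85), Man1a (1.68), Epha7 (1.60), Vnn1 (1.57), Ctsk (1.56), Smpdl3b (1.55) and Ankrd1 (1.46) followed. The remaining ones were Aldh1a7 (1.39), Sned1 (1.37), Tlr7 (1.25), Dusp14 (1.18), Il1rn (1.07) and Vav3 (1.02). Immune, enzyme and lipid genes thus stood on both sides, with Lbp, Tlr7, Il1rn, Akr1c18, Vnn1, Aldh1a7 and Smpdl3b on the positive one. In Lbp, Postn, Vnn1, Sned1 and Il1rn the positive difference came from a deeper fall in P53-KO MEFs.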

How the results depend on the processing

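Quantile normalization moved the higher calls from 54 to 120 (lower from 132 to 119), and a minimum fold of 1.5 gave 1008 rows, 402 higher and 606 lower. Under quantile normalization 30 of the 116 named rows lost their call and 2 gained one. Centring of each array, robust eBayes, treat, single-symbol rows, the 6 arrays alone and the methods' t-test (183 calls after Benjamini-Hochberg) stayed within 1.5 times the count. With each array left out, the called rows ranged from 173 to 209, higher from 46 to 75 (without Mta1-KO replicates 3 and 2) and lower from 122 to 140. Rows past adjusted p alone ranged from 3768 to 4593, higher from 1611 to 2001 and lower from 2091 to 2592. The response difference ranged from 268 to 290 rows, higher from 156 to 174 and lower from 100 to 122. Replicate numbers did not pair the samples (correlations of deviations 0.0687, -0.379 and -0.196), and the replicate block again gave 186 calls, 4723 rows at adjusted p alone and 274 rows in the response difference. The cause of the quantile shift was not tested. With 3 arrays a group and centred values, signal over background is unknown.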
